A study of Mus musculus and Rattus norvegicus with 30 samples.

Results

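The 10 genes described here encode transcription factors that are linked to axon regrowth: Atf3, Jun, Cebpd, Sox11, Klf6, Klf7, Klf4, Klf9, Stat3 and Smad1. They were chosen by symbol, among 54315 genes and assembled long noncoding RNAs (LncRNAs) in the mouse table and 39281 in the rat table. Earlier results of these data were known when the genes were chosen. All 10 had counts in every mouse library. In rat all 10 were listed, but 5 of them (Jun, Sox11, Klf7, Klf4 and Klf9) had counts, and Atf3, Klf6, Smad1, Stat3 and Cebpd were at 0 in all 8 libraries. The tissue was the whole dorsal root ganglion (DRG), which holds the cell bodies of the sensory neurons and their glia next to the spinal cord. In mice the injury was spared nerve injury (SNI): the common peroneal and sural branches of the sciatic nerve are cut while the tibial branch stays intact. Sham animals had the nerve exposed. Ganglia were taken after 28 days from adult BALB/c (6 sham, 4 SNI) and B10.D2 mice (5 sham, 5 SNI) of both sexes, with 1 animal per library, as ribosomal RNA-depleted total RNA of the L3 and L4 levels. Of these strains, B10.D2 was selected by the study as the one with less mechanical hypersensitivity after SNI. Male Wistar rats had the L5 spinal nerve ligated and cut (SNT) or a sham operation, and the L5 ganglion was taken after 21 days as poly-A RNA (4 sham and 4 SNT libraries, each a pool of 3 animals per the study's methods). SNI cuts part of the axons that run to L3 and L4, whereas SNT cuts the whole L5 nerve. The rat and mouse values therefore differ in species, injury, level, time, sex, RNA selection, pooling, sequencing instrument and depth, which cannot be told apart.

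A sensory neuron whose peripheral axon is cut can regrow it, and this is known to depend on new transcription in the cell body. Atf3, Jun and Cebpd are leucine-zipper factors: Jun is the core of the AP-1 dimer and the main target of the stress kinase JNK, Atf3 is a stress-induced partner of Jun, and Cebpd is a C/EBP factor of acute responses. Sox11 is a SoxC factor of immature neurons. The Kruppel-like factors carry zinc fingers that bind GC-rich DNA, and in other neurons Klf6 and Klf7 are known to promote neurite growth while Klf4 and Klf9 restrain it. Stat3 carries the signal of the gp130 cytokines to the nucleus, and Smad1 that of the bone morphogenetic proteins (BMP).

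RefSeq promoter windows (250 bases before to 50 bases after the start, build GRCm38.p6) were matched by symbol for 9 of the 10 genes. The 130 bases just before the start are printed for the members with the clearest injury response and for the 3 that share a Jun site. In Jun, Klf6 and Sox11 the capitals mark the letters TGACATCA or their reverse complement TGATGTCA, the site through which Jun dimers bind the Jun promoter itself. In Atf3 they mark the GC box (GGGCGG or CCGCCC) and the CACCC box (CCACCC), letters bound by Kruppel-like and related factors. The windows are chr1:191183334-191183463 (minus strand) for Atf3, chr4:95052223-95052352 (minus strand) for Jun, chr13:5861359-5861488 (plus strand) for Klf6 and chr12:27342719-27342848 (minus strand) for Sox11. The Atf3 window belongs to a start inside the annotated span of the gene (chr1:191170296-191218039), not to its 5′ end.
Atf3: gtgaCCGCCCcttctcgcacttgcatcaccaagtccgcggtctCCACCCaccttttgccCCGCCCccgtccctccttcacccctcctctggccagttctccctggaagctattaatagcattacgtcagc
Jun: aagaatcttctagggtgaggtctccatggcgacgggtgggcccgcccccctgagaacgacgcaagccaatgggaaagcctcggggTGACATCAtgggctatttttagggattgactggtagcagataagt
Klf6: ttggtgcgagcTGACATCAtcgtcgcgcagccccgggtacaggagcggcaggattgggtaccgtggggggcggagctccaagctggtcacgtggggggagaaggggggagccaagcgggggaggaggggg
Sox11: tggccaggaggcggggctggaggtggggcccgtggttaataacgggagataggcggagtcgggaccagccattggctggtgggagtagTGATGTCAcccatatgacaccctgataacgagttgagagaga

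The Jun site was present in 3 of the 9 member windows, beginning 45 bases before the start of Jun, 119 bases before that of Klf6 and 42 bases before that of Sox11, and in 3.62% of all 32851 windows. Both strands were searched for every motif. The AP-1 site TGACTCA was in 0 of 9 member windows and 5.2% of all windows, and the CRE letters TGACGTCA were in 0 of 9 and 1.79%. TTCNNNGAA, the STAT site, was found for Klf9 alone, 33 bases before its start, and in 8.3% of all windows. A GC box was in 8 of the 9 windows (35.7% of all windows) and CCACCC, on either strand, in those of Atf3, Jun, Klf7 and Stat3 (31.5%). The GC and CACCC boxes of Jun and the GC box of Klf6 are left in lower case, and the GC boxes of Sox11 lie outside the bases printed. These are matches of letters, not bound sites.

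Library totals were 29989963 to 41881331 counts in mouse and 11954612 to 17887909 in rat. Levels are given as CPM, the counts per M (mega) of the library, on which scale a count of 3, taken as the floor, is 0.0716 to 0.100 in mouse and 0.168 to 0.251 in rat. All 7 sensory neuron markers were counted in mouse, with a summed level of 4143 to 5545 CPM. In rat 4 of the 7 were at 0 (Rbfox3, Uchl1, Pou4f1 and Nefh), and all 4 satellite glial markers were at 0. On the first principal component of the rat libraries (71.5% of the variance) sham 4 (-6.33) and SNT 1 (1.09) lay between the other sham (-48.7 to -35.7) and the other SNT libraries (30.6 to 49.9), so the rat values of the members and the rat counts of the lists are given with and without both. In mouse, BALB/c sham 50 held 1265 CPM of the 4 skeletal muscle markers (group median 36.2 CPM), and BALB/c SNI 49 held 498 CPM of them (group median 31.2 CPM) and 300 CPM of the neutrophil markers (group median 80.2 CPM). BALB/c SNI 49 was the lowest of its group for 4 of the 10 members. B10.D2 SNI 76 was lowest of its group for 6 of the 10 members and 16 of 20 regeneration effectors. Mouse libraries carry the number of their title, and rat libraries are numbered in the column order of the table.

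After SNI, 6 of the 10 factors were higher in BALB/c, 4 in B10.D2, and 0 were lower in either strain, numbers that DESeq2 also gave. Atf3 rose most (9.42-fold in BALB/c, 6.44-fold in B10.D2), followed by Sox11 (2.92-fold and 1.97-fold), while Klf6 and Smad1 rose by less in both strains. Jun and Cebpd passed the test in BALB/c and missed it in B10.D2. Klf7, Klf4, Klf9 and Stat3 did not pass in either strain. Without BALB/c sham 50, or without BALB/c SNI 49, 6 members were higher in BALB/c as before, and without B10.D2 SNI 76 5 were higher in B10.D2. Of all 24685 features tested, 9.69% passed in BALB/c and 4.82% were higher, and in B10.D2 4.58% passed, 2.1% higher and 2.48% lower. Every SNI library lay above every sham library for 5 of the 10 members in BALB/c (4.3% of all features) and for 3 of 10 in B10.D2 (2.41% of all features). The median log2 fold change of the 10 members was 0.46 in BALB/c and 0.23 in B10.D2, against 0.003 and 0.008 over all features. A member passed where the adjusted p of edgeR's quasi-likelihood test was under 0.05, and fold changes are on the log2 scale with their standard error (SE). In these bulk ganglia, fewer cells of a type and less RNA per cell cannot be told apart.

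**Figure D1:**
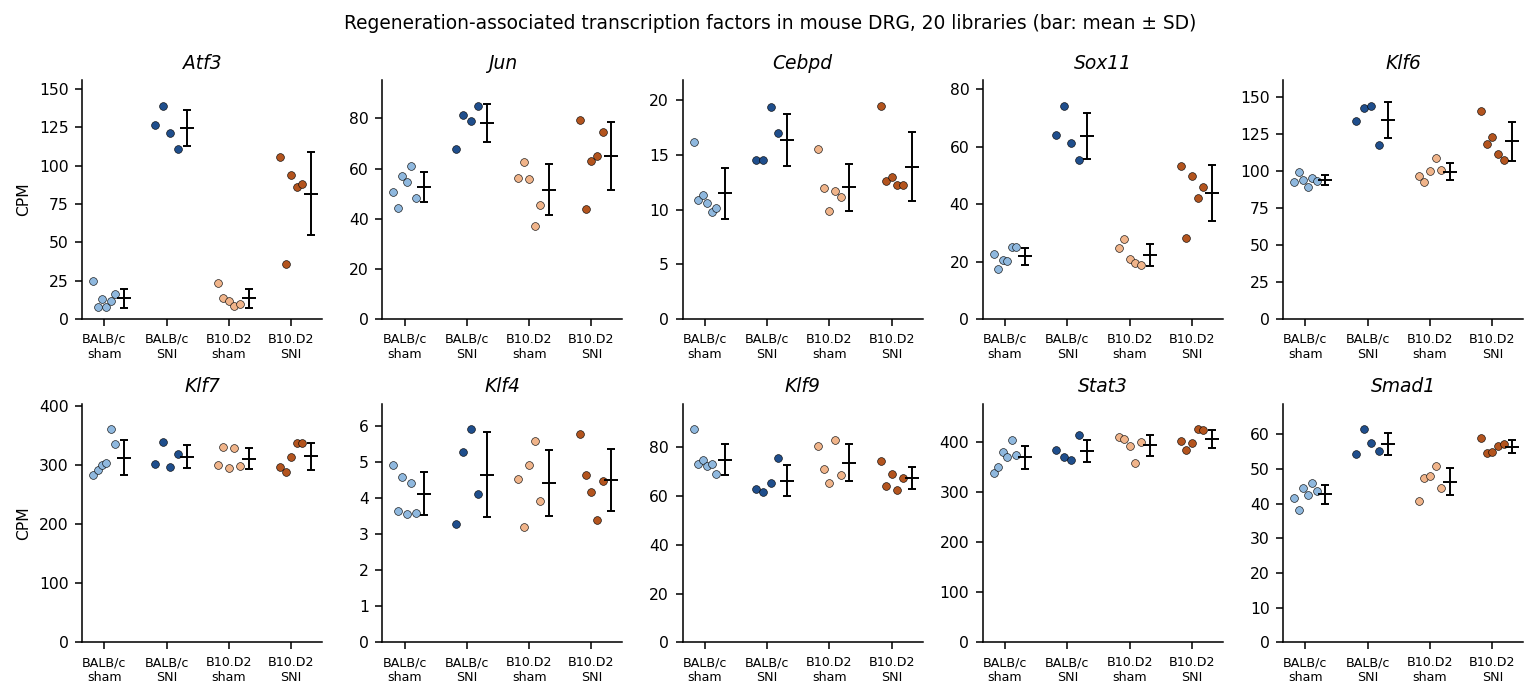
Level of each of the 10 factors (CPM, y axis from 0) in the 20 mouse libraries by group, with 1 point per library and the group mean ± SD as a bar. Atf3 and Sox11 separate SNI from sham in both strains, and B10.D2 SNI 76 is the low point for Atf3 (35.6 CPM) and Sox11 (28.1 CPM) among injured libraries.

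Atf3 (chr1:191170296-191218039, minus strand, mm10) showed the largest response. In BALB/c sham ganglia it ranged from 7.82 to 24.6 CPM, with a median of 12.2 CPM, and the 4 SNI libraries held 127, 139, 121 and 111 CPM. All SNI values lay far above all sham values, at a log2 fold change of 3.24 ± 0.29 (SE; adjusted p = 3.1e-07, edgeR). The B10.D2 sham libraries held 23.8, 13.4, 11.6, 8.54 and 9.95 CPM, and the SNI libraries 106, 35.6, 94.1, 85.8 and 87.8 CPM. The B10.D2 groups did not overlap either, although SNI 76, at 35.6 CPM, came much nearer to the highest sham library than the other 4 did. The log2 fold change was 2.69 ± 0.30 (SE; adjusted p = 1.79e-05, edgeR). Among sham libraries, 1 in each strain (BALB/c 50 at 24.6 CPM, B10.D2 58 at 23.8 CPM) held more Atf3 than any other.

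Jun (chr4:95049034-95052222, minus strand) is a gene whose annotated exon of 3189 bases covers its whole span, without an intron. It ranged from 44.4 to 61.0 CPM in BALB/c sham, with a median of 52.7 CPM, and the SNI libraries held 67.7, 81.4, 79.0 and 85.0 CPM. The groups did not overlap, at a log2 fold change of 0.57 ± 0.14 (SE; adjusted p = 0.0117, edgeR), which is 1.49-fold. In B10.D2 the sham libraries held 56.3, 62.8, 55.9, 37.2 and 45.4 CPM, and the SNI libraries 79.3, 44.1, 62.9, 65.2 and 74.5 CPM. Here 4 of 5 SNI libraries lay above all sham libraries and SNI 76 lay among them, so the groups overlapped, and the log2 fold change of 0.34 ± 0.14 (SE) had an adjusted p of 0.207 (edgeR). Without SNI 76 it was 0.45, with an adjusted p of 0.0415.

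Cebpd (chr16:15887286-15891031, plus strand), also without an intron in the annotation, ranged from 9.82 to 16.2 CPM in BALB/c sham with a median of 10.7 CPM. The SNI libraries held 14.5, 14.6, 19.4 and 17.0 CPM. The groups overlapped through sham 50 (16.2 CPM), the other 5 sham libraries lying below all SNI libraries, and the log2 fold change was 0.51 ± 0.15 (SE; adjusted p = 0.0378, edgeR). That result missed the threshold when sham 51, 55, 56, 57 or 71 or SNI 64, 65 or 70 was left out, with an adjusted p of up to 0.174. In B10.D2 the sham libraries held 15.6, 11.97, 9.84, 11.7 and 11.2 CPM and the SNI libraries 19.5, 12.6, 13.0, 12.3 and 12.2 CPM. The B10.D2 groups overlapped, and the log2 fold change of 0.22 ± 0.16 (SE) did not pass (adjusted p = 0.535, edgeR).

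Sox11 (chr12:27334264-27342574, minus strand; 8311 bases of exon and no intron) followed Atf3 in size of response. It ranged from 17.5 to 25.1 CPM in BALB/c sham, with a median of 21.7 CPM, and the SNI libraries held 64.1, 74.3, 61.5 and 55.3 CPM. The SNI libraries stood clear of the sham libraries, at a log2 fold change of 1.55 ± 0.14 (SE; adjusted p = 4.96e-07, edgeR). In B10.D2, sham libraries held 24.7, 27.95, 20.9, 19.4 and 18.8 CPM and SNI libraries 53.5, 28.1, 49.8, 42.1 and 45.9 CPM. The B10.D2 groups were separated by a narrow margin alone, since SNI 76 (28.10 CPM) was just above sham 60 (27.95 CPM), and the log2 fold change was 0.98 ± 0.15 (SE; adjusted p = 0.000319, edgeR).

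Of the 2 growth-promoting Kruppel-like factors, Klf6 rose and Klf7 did not pass the test. Klf6 (chr13:5861482-5870394, plus strand) ranged from 89.5 to 99.6 CPM in BALB/c sham (median 94.0 CPM) and held 134, 143, 144 and 117 CPM in SNI. The SNI libraries were all higher, although the step was small (log2 fold change 0.51 ± 0.06 SE, 1.42-fold; adjusted p = 5.48e-06, edgeR). The B10.D2 sham libraries held 96.4, 92.8, 100.3, 109 and 100.5 CPM, and the SNI libraries 141.0, 119, 123, 112 and 107 CPM. The groups overlapped between sham 77 (109 CPM) and SNI 90 (107 CPM), and the log2 fold change was 0.25 ± 0.06 (SE; adjusted p = 0.0147, edgeR). It missed the threshold without B10.D2 sham 67 (adjusted p = 0.0599).

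Klf7 (chr1:64029447-64122282, minus strand) was among the most abundant of the 10 factors, with a mean of 313 CPM in BALB/c sham and 311 CPM in B10.D2 sham. Its lowest library in BALB/c sham held 284 CPM, the median 303 CPM and the highest 361 CPM, and the BALB/c SNI libraries held 303, 340, 298 and 319 CPM. The B10.D2 sham libraries held 300.0, 331, 295, 330 and 298 CPM, and the SNI libraries 297, 289, 313, 338 and 337 CPM. Sham and SNI libraries were intermixed in both strains, at 0.01 ± 0.07 (BALB/c) and 0.02 ± 0.07 (B10.D2) on the log2 scale (SE; adjusted p = 0.963 and 0.922, edgeR).

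The growth-restraining pair did not pass the test in either strain. Klf4 (chr4:55527143-55532466, minus strand) had the lowest counts of the 10, with 3.57 to 4.92 CPM in BALB/c sham (median 4.03 CPM) and 3.28, 5.29, 5.91 and 4.11 CPM in SNI. In B10.D2 it held 4.53, 3.20, 4.92, 5.59 and 3.91 CPM in sham and 5.78, 4.65, 4.17, 3.40 and 4.48 CPM in SNI. The Klf4 groups overlapped throughout, with log2 fold changes of 0.15 ± 0.14 and -0.04 ± 0.14 (SE; adjusted p = 0.574 and 0.931, edgeR). Klf9 (chr19:23141226-23168134, plus strand), which thyroid hormone and glucocorticoids are known to induce, ranged from 68.9 to 87.3 CPM in BALB/c sham (median 73.1 CPM) and held 62.8, 61.5, 65.4 and 75.4 CPM in SNI. Its B10.D2 sham libraries held 80.3, 70.9, 65.4, 83.1 and 68.5 CPM and its SNI libraries 74.4, 64.1, 68.99, 62.6 and 67.2 CPM. It was the 1 member with a lower mean after SNI in both strains, with overlapping groups, and its log2 fold changes of -0.18 ± 0.08 (adjusted p = 0.166, edgeR) and -0.12 ± 0.08 (adjusted p = 0.45, edgeR) did not pass.

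Stat3 and Smad1, the carriers of cytokine and BMP signals, differed from each other. Stat3 (chr11:100885098-100939540, minus strand) had the highest counts of the 10 in every mouse group, with 338 to 403 CPM in BALB/c sham (median 372 CPM) and 383, 369, 364 and 413 CPM in SNI. In B10.D2 it held 410.1, 405, 391, 358 and 399 CPM in sham and 402, 384, 397, 425 and 423 CPM in SNI. Sham and SNI overlapped in both strains, at log2 fold changes of 0.05 ± 0.05 and 0.06 ± 0.05 (SE; adjusted p = 0.626 and 0.648, edgeR). Stat3 is switched on by phosphorylation, which RNA counts do not measure.

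Smad1 (chr8:79338395-79399518, minus strand) rose modestly but evenly. It ranged from 38.1 to 45.8 CPM in BALB/c sham (median 43.0 CPM) and held 54.3, 61.5, 57.6 and 55.2 CPM in SNI. In B10.D2 it held 40.7, 47.3, 47.9, 50.96 and 44.6 CPM in sham and 59.1, 54.5, 54.8, 56.6 and 57.3 CPM in SNI. The groups did not overlap in either strain, SNI 76 included, and the log2 fold changes were 0.42 ± 0.05 (SE; adjusted p = 1.17e-05, edgeR) and 0.27 ± 0.05 (SE; adjusted p = 0.00244, edgeR).

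**Figure D2:**
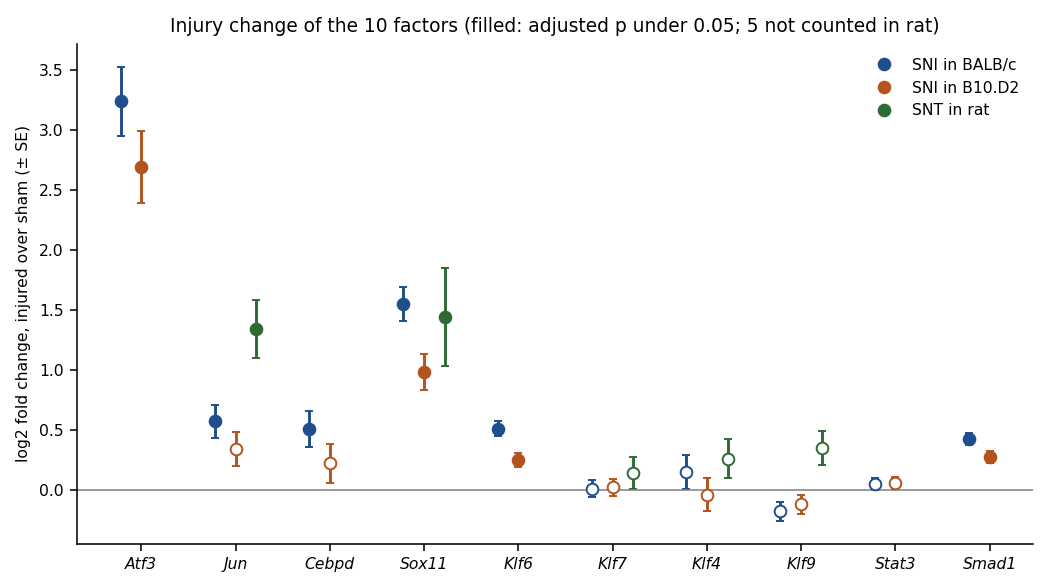
Log2 fold change of injured over sham (y axis, ± SE) for each factor after SNI in BALB/c, after SNI in B10.D2 and after SNT in rat, with filled points for adjusted p under 0.05. Atf3 (3.24 and 2.69) and Sox11 (1.55, 0.98 and 1.44) stand highest, Klf7 and Stat3 lie at 0.01 to 0.14, and 5 factors have no rat point because they were at 0 in that table.

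Levels of different genes were compared per kilobase (kb) of exon, since a longer transcript gives more counts. In sham ganglia of both strains Stat3 and Klf7 came first and overlapped (38.7 ± 2.42 and 38.5 ± 3.62 CPM per kb, SD, n = 6, in BALB/c), and Klf6 followed, apart from both, at 21.5 ± 0.759. Jun and Klf9 came next and overlapped (16.5 ± 1.90 and 15.6 ± 1.33 CPM per kb). Smad1 (6.82 CPM per kb), Atf3 (6.29), Cebpd (3.07) and Sox11 (2.63) each overlapped their neighbour in that order, and Klf4 was lowest at 1.35 ± 0.194, apart from Sox11. SNI moved Atf3 from the seventh place to the first in BALB/c, at 57.7 ± 5.50 CPM per kb (SD, n = 4), with no overlap with Stat3. In B10.D2 SNI, Atf3 reached the third place at 37.95 ± 12.5 CPM per kb (SD, n = 5) and overlapped Klf7 above it and Klf6 below it. The other 9 kept the same order after SNI, apart from Sox11, which passed Cebpd in both strains.

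**Figure D3:**
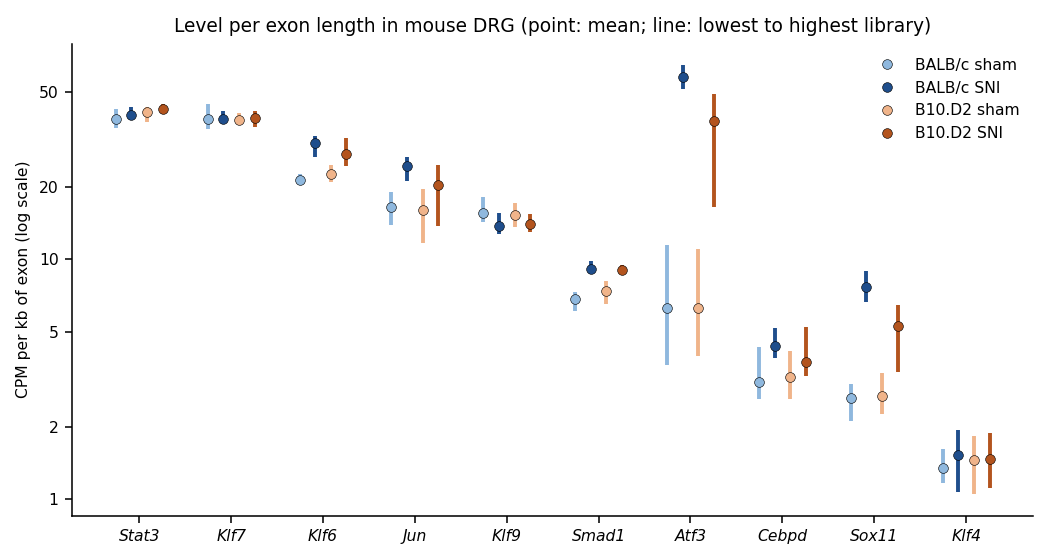
Level of each factor in CPM per kb of exon (log axis) in the 4 mouse groups, with the mean as a point and a line from the lowest to the highest library. Atf3 climbs from 6.29 to 57.7 CPM per kb in BALB/c and from 6.25 to 37.95 in B10.D2, past Klf6 (30.6 and 27.4), while Klf7 (38.2 to 38.7) and Stat3 (38.7 to 42.6) did not pass the test in either strain.

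The next question was whether the strains differ. The test of the difference itself, the strain by injury interaction, called 0 of the 10 members (0.0243% of all features were called, and 3 members and 1073 features had an unadjusted p under 0.05). DESeq2 also called 0 members. Interaction values (the B10.D2 minus the BALB/c log2 fold change) were -0.55 ± 0.41 for Atf3, -0.57 ± 0.21 for Sox11, -0.26 ± 0.08 for Klf6 and -0.15 ± 0.07 for Smad1 (SE, edgeR), each with an adjusted p of 1. All 6 members that rose in BALB/c had the smaller estimate in B10.D2, but none of these differences passed the interaction test after adjustment over all features. Unadjusted p was 0.00448 for Klf6, 0.0121 for Sox11 and 0.0486 for Smad1 (edgeR). It was 0.195 for Atf3, 0.263 for Jun and 0.19 for Cebpd (edgeR). The 6 members were picked by passing in BALB/c, which favours larger BALB/c estimates, so this count does not show a weaker response in B10.D2. The strains' sham levels did not differ for any member at the threshold (21.6% of all features passed there; 1 member had an unadjusted p under 0.05, and DESeq2 called 0). The nearest to it was Smad1, higher in B10.D2 by 0.13 ± 0.05 on the log2 scale (SE; adjusted p = 0.0697, edgeR), which passed when B10.D2 sham 58 was left out (0.16, adjusted p = 0.0186).

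Injured libraries of the strains were compared directly after these results were seen. Sox11 was lower in B10.D2 SNI than in BALB/c SNI, at a log2 difference of -0.54 ± 0.15 (SE; adjusted p = 0.0123, edgeR), the means being 43.9 ± 9.79 CPM against 63.8 ± 7.89 CPM (SD). Every B10.D2 SNI library lay below every BALB/c SNI library for this gene. Klf6 was lower too, at -0.17 ± 0.06 (SE; adjusted p = 0.0484, edgeR), a result that missed the threshold in 20 of 26 alternatives. These 2 were the members that passed, against 20.8% of all features. Atf3 was lower in each B10.D2 SNI library (35.6 to 106 CPM) than in any BALB/c SNI library (111 to 139 CPM), but its difference of -0.59 ± 0.29 did not pass (SE; adjusted p = 0.16, edgeR). The share of all features with such a gap between the strains' injured libraries was not counted, so neither gene's gap can be set against it. Without BALB/c SNI 64 the Sox11 difference had an adjusted p of 0.0597.

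Sex, a term of the model, gave 0 called members (0.243% of all features were called; 3 members had an unadjusted p under 0.05, and DESeq2 called 0). Klf4 had the largest estimate, a male minus female log2 difference of -0.32 ± 0.10 (SE; adjusted p = 0.188, edgeR). Klf6 (-0.11 ± 0.04) and Smad1 (-0.09 ± 0.04) were also lower in males without passing (SE; adjusted p = 0.27 and 0.304, edgeR). Atf3 was at 0.30 ± 0.21 (SE; adjusted p = 0.614, edgeR).

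In rat after SNT, 2 of the 5 counted members rose (Jun and Sox11) and 0 fell, and for the same 2 the groups did not overlap. Over all 13690 features, 27.4% passed, 12.3% were higher, 15.1% were lower and 12.2% had every SNT library above every sham library. Without sham 4 and SNT 1 the same 2 members passed, while the shares of 13892 features were 43.9% passed, 21.1% higher and 22.8% lower. The median log2 fold change of the 5 was 0.35, against 0.003 over all features. Jun held 169, 182, 159 and 324 CPM in sham libraries 1 to 4 and 423, 632, 483 and 576 CPM in SNT libraries 1 to 4. Sham 4 was the highest sham library and SNT 1 the lowest SNT library, and the log2 fold change was 1.34 ± 0.24 (SE, 2.53-fold; adjusted p = 0.0107, edgeR). Without sham 4 and SNT 1 it was 1.73 (adjusted p = 3.16e-05).

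Sox11 held 11.9, 18.5, 16.5 and 52.9 CPM in the rat sham and 56.4, 67.5, 60.1 and 87.2 CPM in the SNT libraries. Sham 4, at 52.9 CPM, came close to the lowest SNT library and far above the other 3 sham libraries, and the log2 fold change was 1.44 ± 0.41 (SE, 2.71-fold; adjusted p = 0.0287, edgeR). It missed the threshold without sham 1, 2 or 3 or without SNT 2, 3 or 4 (adjusted p of 0.0501 to 0.083). Leaving out sham 4 and SNT 1 instead gave 2.19 (adjusted p = 5.07e-05). Sham 4 was also the highest sham library for 13 of 15 regeneration effectors and held 243 CPM of macrophage markers, whose lowest value in sham was 58.1 CPM. Of the 7 macrophage markers 4 were at 0 in every rat library. The part of those cells in the Sox11 and Jun values was not tested.

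The 3 rat Kruppel-like factors did not pass. Klf7 held 68.6, 90.2, 78.5 and 74.6 CPM in sham and 75.7, 88.5, 74.5 and 104.6 CPM in SNT, overlapping widely (log2 fold change 0.14 ± 0.13 SE; adjusted p = 0.459, edgeR). Klf4 held 6.72, 9.94, 7.12 and 8.34 CPM in sham and 10.05, 9.86, 9.17 and 9.37 CPM in SNT. Sham 2 lay within the SNT range for Klf4 (0.26 ± 0.16 SE; adjusted p = 0.238, edgeR). Klf9 held 62.3, 92.0, 58.9 and 68.4 CPM in sham and 99.95, 80.9, 89.4 and 88.1 CPM in SNT, where again sham 2 was the 1 sham library within the SNT range. Its log2 fold change of 0.35 ± 0.14 had an adjusted p of 0.097 (SE, edgeR), of 0.0322 without sham 2 and of 0.0483 when annotated genes alone were fitted. Without sham 4 and SNT 1 the log2 fold changes were 0.18 for Klf7, 0.25 for Klf4 and 0.28 for Klf9, and again none passed (adjusted p = 0.369, 0.305 and 0.197, edgeR).

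**Figure D4:**
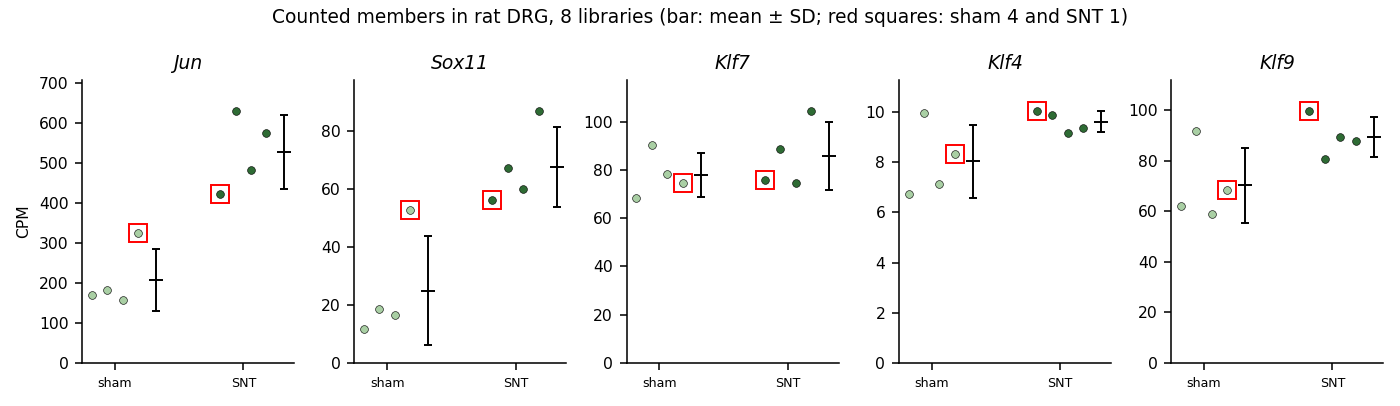
Level of the 5 counted factors (CPM, y axis from 0) in the 8 rat libraries, with 1 point per library, the group mean ± SD as a bar and red squares around sham 4 and SNT 1. For Jun and Sox11 sham 4 (324 and 52.9 CPM) lies between the other sham and the SNT libraries.

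The 5 rat members at 0 were not alone. Around each member the 10 nearest genes on either side in the mouse genome that are matched by symbol in rat and have at least 1 CPM in mouse were counted. All 20 such neighbours of Atf3, Cebpd, Stat3 and Smad1 and all 16 of Klf6 were at 0 in every rat library, against 0 of 20 for each of Jun, Sox11, Klf7, Klf4 and Klf9. Over all 12413 matched genes 37.5% (4660) were at 0. With whole neighbourhoods at 0, a value of 0 says nothing of the gene's level, so Atf3, Klf6, Smad1, Stat3 and Cebpd have no rat value here.

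Around the mouse loci, most features within 10 kb did not pass the test. Atf3 has the assembled LncRNA LncRNA3786 on the opposite strand, 9102 bases from the 5′ end of the annotated Atf3 span (not from the promoter start printed above). It had 46.0 ± 5.39 CPM in BALB/c sham and 42.8 ± 7.18 CPM in SNI (SD) and did not pass (log2 fold change -0.11 ± 0.12 SE; adjusted p = 0.634, edgeR). Junos, the annotated antisense transcript that overlaps Jun, held 2.0 to 2.48 CPM in the group means, with log2 fold changes of 0.10 ± 0.17 and -0.05 ± 0.16 (SE; adjusted p = 0.778 and 0.931, edgeR). LncRNA3497, which runs antisense across the start of Klf9, held 0.516 to 0.693 CPM and did not pass either. No feature with counts lay within 10 kb of Sox11 or Klf4.

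Overlapping protein-coding genes were higher beside 2 members. Spidr, a DNA repair scaffold gene, overlaps Cebpd on the opposite strand and rose in BALB/c by 0.36 ± 0.10 (SE; adjusted p = 0.0304, edgeR), with 0.22 ± 0.10 in B10.D2 (adjusted p = 0.281). Stat5a, another STAT factor, meets Stat3 tail to tail with a short overlap on the opposite strand. It rose from 9.96 ± 0.660 to 14.6 ± 0.83 CPM in BALB/c (SD), at a log2 fold change of 0.55 ± 0.08 (SE; adjusted p = 0.000171, edgeR), while Stat3 did not pass. In B10.D2 Stat5a was at 0.28 ± 0.08 (adjusted p = 0.0654). Whether the counting used strand is not given in the sources used here. Without it, reads from the overlap of such a pair could not be told apart, so the values of Cebpd, Spidr, Stat3, Stat5a, Jun and Junos carry that limit.

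Genes with the most similar profile were sought among 14413 annotated mouse genes over the 20 libraries, by the root mean square distance of standardised log2(CPM + 1) values, in which 0 is an identical profile. These 20 libraries include the sham and SNI groups, so any gene that responds to SNI comes near. For Atf3 the nearest were Abca1, a cholesterol exporter (0.18), Nts, the neuropeptide neurotensin (0.18), and Sprr1a, a small proline-rich protein of injured neurons (0.19), and Sox11 was at 0.25. Their log2 fold changes differed in size: 0.74 and 0.64 (BALB/c and B10.D2) for Abca1, 3.01 and 2.77 for Nts, and 4.92 and 5.05 for Sprr1a. For Sox11 the nearest were Tnik (0.19), a kinase of Wnt signalling, Adam8 (0.20), a membrane protease, and Fgf3 (0.23), a growth factor. Jun had no gene as near, with Ptpn1 (0.39), Itpkc (0.40) and Apba2 (0.42) first and Sox11 at 0.54.

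The partners and pathways around the 10 factors were counted from lists. Of all features, 4.82% rose and 4.87% fell in BALB/c, and 2.1% and 2.48% in B10.D2. In rat 12.3% rose and 15.1% fell, or 21.1% and 22.8% without sham 4 and SNT 1. Of 15 tested AP-1 and ATF partners, 3 rose in BALB/c (Fos, Fosl2 and Mafk), 1 in B10.D2 (Fosl2) and 0 fell. Fosl2, a Fos-family partner of Jun, went from 19.8 ± 3.01 to 37.3 ± 2.17 CPM in BALB/c (SD; 0.92 ± 0.16 SE, adjusted p = 0.000682, edgeR) and from 19.2 ± 3.92 to 31.3 ± 8.81 CPM in B10.D2 (0.68 ± 0.16, adjusted p = 0.0172). In rat 4 of 11 rose (Fos, Fosl1, Maff and Atf5) and Ddit3, a stress factor that dimerises with C/EBP proteins, fell (6 and 1 without sham 4 and SNT 1). Fos rose from 28.4 to 64.8 CPM there (1.19 ± 0.25 SE, adjusted p = 0.013, edgeR). The list's median log2 fold change was 0.07, 0.05 and 0.36 in BALB/c, B10.D2 and rat.

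Of 11 genes of the DLK and JNK pathway, which leads to Jun, 0 rose and 3 fell in BALB/c (4.87% of all features fell there) and 8 did not pass: Map2k4, a JNK kinase (-0.21 ± 0.05 SE, adjusted p = 0.0114, edgeR), and Mapk9 and Mapk10, which encode JNK2 and JNK3 (-0.15 and -0.31, adjusted p = 0.0363 and 0.0381). In B10.D2 0 of the 11 passed with edgeR or DESeq2 (1 had an unadjusted p under 0.05), and 1 of 4 counted genes rose in rat (Map3k1, 0.87 ± 0.17 SE, adjusted p = 0.0119), the 1 that also rose without sham 4 and SNT 1. The medians were -0.15, -0.11 and -0.14.

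Among the cytokines, receptors and regulators of the STAT3 pathway, 2 of 17 rose in BALB/c and 1 in B10.D2. Clcf1, a gp130 cytokine, rose from 1.28 ± 0.337 to 2.70 ± 0.338 CPM in BALB/c (SD; 1.07 ± 0.20 SE, adjusted p = 0.00107, edgeR) and from 1.46 ± 0.340 to 2.63 ± 0.476 CPM in B10.D2 (0.86 ± 0.20, adjusted p = 0.0135). Socs3, the feedback inhibitor that STAT3 induces, rose in BALB/c from 8.69 to 13.4 CPM (0.62 ± 0.18, adjusted p = 0.0321). In rat 5 of 12 rose, led by the receptor kinases Jak2 (0.74 ± 0.19, adjusted p = 0.0197) and Tyk2 (0.46 ± 0.12, adjusted p = 0.0201) and by Pias3, an inhibitor of STAT3 (0.36 ± 0.09, adjusted p = 0.0203), with 9 of 12 without sham 4 and SNT 1. The medians were 0.11, 0.09 and 0.42.

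Genes around Smad1 moved in both directions. Of 19 genes of the BMP and SMAD pathway, 2 rose and 2 fell in BALB/c, and 2 rose and 3 fell in B10.D2. Acvr1, a type I BMP receptor, rose from 12.8 ± 1.45 to 21.8 ± 3.29 CPM in BALB/c (SD; 0.77 ± 0.10 SE, adjusted p = 2.2e-05, edgeR) and from 11.6 ± 0.539 to 18.6 ± 2.36 CPM in B10.D2 (0.66 ± 0.10, adjusted p = 0.000297). Smad9, the close relative of Smad1, fell by 0.47 in BALB/c and 0.43 in B10.D2 on the log2 scale (SE 0.07 in each; adjusted p = 0.000212 and 0.000939, edgeR), opposite to Smad1 itself. Smad5, the other relative, rose in BALB/c (0.27 ± 0.06, adjusted p = 0.00326), and the BMP inhibitor Nog fell in B10.D2 from 4.45 ± 0.689 to 2.82 ± 0.622 CPM (-0.71 ± 0.18, adjusted p = 0.0252). In rat 4 of 12 rose and 2 fell (7 and 3 without sham 4 and SNT 1), with Bmp7 and the BMP target Id2 among those that rose (1.08 ± 0.27 and 0.99 ± 0.23, adjusted p = 0.0183 and 0.015). Of all features 15.1% fell in rat (22.8% without both libraries), so the numbers that fell here are near those shares. Smad9 was called lower in rat as well, where 2 features carry its symbol and the first was used for the count. The first held 16 to 41 counts per sham library and 1 to 9 per SNT library and the second 13 to 32 and 1 to 6, too few for a fold change. The medians were -0.01, -0.02 and 0.55.

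Of 11 other Kruppel-like factors, Klf10, Klf11 and Klf3 rose in BALB/c (0.31, 0.29 and 0.23, adjusted p = 0.0165, 0.0355 and 0.0461, edgeR) and 0 passed in B10.D2 (1 with an unadjusted p under 0.05, 1 called by DESeq2). In rat 4 of 6 rose, with and without sham 4 and SNT 1: Klf10 and Klf11 again, at 0.69 ± 0.16 and 0.67 ± 0.13 (adjusted p = 0.0153 and 0.0123), and Klf13 and Klf16. The 6 Sox factors other than Sox11 that were tested (SoxC relatives and glial factors) did not pass in mouse (3 in BALB/c and 1 in B10.D2 had an unadjusted p under 0.05; DESeq2 called 2 and 0), and in rat the glial factors Sox10 and Sox2 rose, 2 of 3 tested (0.97 ± 0.17 and 0.65 ± 0.16, adjusted p = 0.0108 and 0.0195). Of 18 further growth-related transcription factors, Rela, a subunit of NF-kappaB, rose in both strains (0.32 ± 0.06 and 0.23 ± 0.06, adjusted p = 0.000803 and 0.0233). Rela rose in rat as well (0.93 ± 0.14, adjusted p = 0.0104), where 8 of 10 did (9 without sham 4 and SNT 1). Crem, Nfil3 and Rest rose in BALB/c alone by the threshold, and the interaction test called 0 genes of these 7 lists.

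The regeneration effectors, mostly neuropeptides and proteins of the growing axon, were the list with the highest median in each comparison (0.81, 0.58 and 1.19). Of 19 tested, 14 rose in BALB/c and 11 did in B10.D2. In rat 9 of 14 rose (12 without sham 4 and SNT 1), and 0 fell in any comparison, against 4.82%, 2.1% and 12.3% of all features that rose. The lists were chosen with earlier results of these data known, so this comparison is a description and no test. Sprr1a rose from 0.822 ± 0.627 to 24.5 ± 5.58 CPM in BALB/c (SD; 4.92 ± 0.39 SE, adjusted p = 8.5e-08, edgeR) and from 0.515 ± 0.290 to 16.5 ± 6.29 CPM in B10.D2 (5.05 ± 0.45, adjusted p = 2.79e-06). Flrt3, a membrane protein of axon guidance, rose by 1.80 ± 0.11 and 1.23 ± 0.11, and Chl1, an adhesion molecule, by 1.02 ± 0.07 and 0.66 ± 0.07. Gal, the neuropeptide galanin, was the 1 gene of all the lists with a called interaction. It rose from 8.15 ± 3.49 to 145 ± 38.8 CPM in BALB/c and from 6.92 ± 1.5 to 23.9 ± 5.40 CPM in B10.D2 (SD; interaction -2.37 ± 0.36 SE, adjusted p = 0.014, edgeR). In rat Vip, a neuropeptide, rose from 19.2 ± 14.8 to 139 ± 30.9 CPM (2.85 ± 0.43 SE, adjusted p = 0.0104), and Ecel1, a neuronal endopeptidase, from 13.5 ± 6.39 to 71.1 ± 15.8 CPM (2.39 ± 0.30, adjusted p = 0.00996). Without sham 4 and SNT 1 these were 3.67 and 2.9, and all 40 list genes called in rat were also called, in the same direction. That is no independent check, since both libraries were left out for lying between the groups. Fos was then at 1.42, Jak2 at 0.98, Bmp7 at 1.28, Klf10 at 0.92, Sox10 at 1.15 and Rela at 1.10 on the log2 scale.

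**Figure D5:**
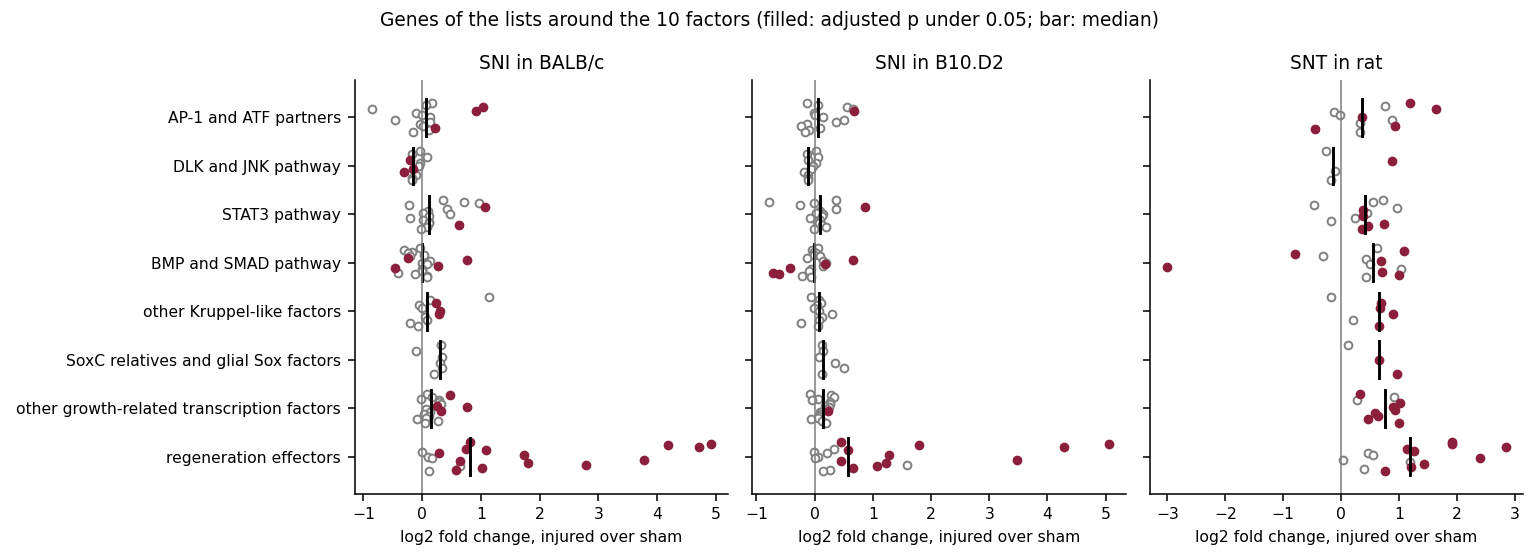
Log2 fold change (x axis) of every tested gene in 8 lists around the 10 factors, in 1 panel per comparison, with filled points for adjusted p under 0.05 and a black bar at the list's median. The regeneration effectors lie furthest to the right (medians 0.81, 0.58 and 1.19), while the medians of the DLK and JNK pathway lie below 0 in mouse (-0.15 and -0.11), with genes on both sides of 0.

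Markers of other cells were set beside the mouse changes. Of all features, 4.82% rose and 4.87% fell in BALB/c, and 2.1% and 2.48% in B10.D2. Of 7 macrophage markers, 2 rose in BALB/c and 0 in B10.D2, with median log2 fold changes of 0.41 and 0.43, and their summed level was 67.1 to 164 CPM in BALB/c sham and 116 to 172 CPM in SNI. Schwann cell markers had 0 of 5 called in either strain (medians -0.06 and -0.05), and of the sensory neuron markers 1 of 7 fell in each strain (medians -0.12 and -0.13). Summed sensory neuron markers held 4906 to 5537 CPM in BALB/c sham and 4227 to 4876 CPM in SNI, without overlap. In B10.D2 they held 4759 to 5545 CPM in sham and 4143 to 5162 CPM in SNI, with overlap. Of the 4 satellite glial markers 1 rose in each strain, and their summed level was 768 to 878 CPM in BALB/c sham and 864 to 986 CPM in SNI, and 750 to 820 CPM in B10.D2 sham and 747 to 886 CPM in SNI. Of the 4 fibroblast markers 1 rose in each strain (medians 0.23 and 0.30), and of the 4 endothelial markers 1 rose in BALB/c (median 0.09). T cell, neutrophil and skeletal muscle markers had 0 of 4 called in either strain. Their medians were 0.60, 0.86 and -0.41 in BALB/c and 0.05, -0.27 and 1.04 in B10.D2. In rat, 2 of the 3 sensory neuron markers with counts fell (median -1.09), where 12.3% of all features rose and 15.1% fell. Of the 7 macrophage markers 4 were at 0 in rat (Csf1r, Cd68, Aif1 and Mrc1), and 0 of the 3 tested passed (median 1.09). Macrophage markers with counts summed to 58.1 to 243 CPM in sham and 200 to 315 CPM in SNT. Of the T cell markers 2 of 3 tested rose in rat (median 1.16; summed 1.35 to 3.84 CPM in sham and 4.11 to 7.56 CPM in SNT), and of the fibroblast markers 1 of 2 rose (median 0.72). The part of these cells in the members' changes was not tested.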

How the data were processed

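Per the labels and the study's methods, the authors sequenced stranded paired-end libraries, aligned them with STAR (mm10, rn6) and counted reads with HTSeq over Ensembl genes and LncRNAs they assembled. The deposited tables hold raw counts per feature. Deposited tables of the authors' own fold changes and p-values were used for gene symbols alone. The labels name 2 mouse samples (B10.D2 sham 59, BALB/c SNI 66) that were not analysed here.

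Counts were tested with edgeR 4.0.16 (R 4.3.3): TMM, filterByExpr, quasi-likelihood F test, two-sided, Benjamini-Hochberg adjustment over all features (24685 in mouse, 13690 in rat), with sex and strain by surgery in mouse and surgery in rat. CPM are counts per M (mega) of the library total times its TMM factor. SE is the absolute log2 fold change over the square root of F. All 10 members were named, and per list up to 3 called genes with the lowest adjusted p plus those the description turns on. The members and lists were chosen with earlier results of these data known. On simulated data 144 of 200 genes changed by 1 on the log2 scale were recovered in the BALB/c comparison (9 false calls) and 104 of 200 in rat (2 false calls). Alternatives were DESeq2 1.42.0, other size factors and filters, annotated genes alone, no sex term, each strain alone, and leaving out each library.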

Additional observations from a re-analysis of the deposited data

Results flagged for a closer look

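Within groups of 4 to 6 libraries, the highest or lowest value of a member was compared with its nearest neighbour by Dixon's test. Of 50 groups, 6 (12%) held a library past the limit, where independent groups of normal values would give about 1 in 20. The groups of different genes share libraries and are not independent, so the 12% cannot be read as an excess. In rat sham 4, Jun was at 324 CPM (next 182 CPM) and Sox11 at 52.9 CPM (next 18.5 CPM). In BALB/c sham 50, Cebpd was at 16.2 CPM (next 11.3 CPM) and Klf9 at 87.3 CPM (next 74.9 CPM), and the same library held 180 CPM of neutrophil markers, whose group median was 38.2 CPM. The part of those cells was not tested. Cebpd was at 19.5 CPM in B10.D2 SNI 69 (next 13.0 CPM). Atf3 was at 35.6 CPM in B10.D2 SNI 76, the lowest of its group (next 85.8 CPM). SNI 76 also held less Sprr1a (6.31 CPM, others 16.7 to 23.4 CPM), Npy (9.21 CPM, others 24.1 to 36.3 CPM) and Ecel1 (3.78 CPM, others 13.7 to 17.3 CPM) than the other 4 libraries of its group.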

How the results depend on the processing

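The 12 injury changes past the threshold kept their direction in all 300 alternative values, of which 285 stayed past it, and 15 did not (8 for Cebpd in BALB/c, 6 for Sox11 in rat and 1 for Klf6 in B10.D2, each with a library left out). Values near 0 changed sign: Klf7 in BALB/c without the filter on low counts (-0.0026) and with a library left out (-0.04 to 0.06), Klf7 in B10.D2 (-0.01 to 0.05), Klf4 in B10.D2 without the sex term (0.02) and with a library left out (-0.11 to 0.01), and Atf3 between strains in sham (-0.31 to 0.20). Of the members that differed between strains after SNI, 1 remained without the filter, with at least 10 counts in every library, with annotated genes alone and without the sex term, and 0 to 2 with a library left out. With a library left out, 0 or 1 members differed between strains in sham and 1 or 2 rose in rat. The cause was not tested. Features called in rat were 3753, against 6100 without sham 4 and SNT 1 and 1483 to 5041 with a library left out. Those called in B10.D2 were 1130, and 665 without SNI 90. Interactions numbered 6, against 10 with DESeq2, 3 with at least 10 counts in every library and 3 to 6 with a library left out. By sex 60 features were called, against 242 with DESeq2, 222 without the filter and 35 to 159 with a library left out. With the rat run numbers as a replicate block, 2558 features and 2 members (Jun and Sox11, adjusted p = 0.0273) were called. Over all features tested, the deviations of same-numbered libraries correlated at -0.29 to 0.05. For the 15 rat regeneration effectors, sham 4 and SNT 4, which share a run number, were each highest of their group for 13. Sham 1 and SNT 1, which share another, were each lowest for 9. Whether a shared run accounts for this was not tested. Depth left Klf4, at 3.20 to 5.91 CPM in mouse, well above the floor.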
